A study of Mus musculus with 2 samples.

Results

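The natural killer receptors described here are 10 genes, Klra4, Klra7, Klra8, Klra9, Klrb1c, Klrc1, Klrd1, Klre1, Klrk1 and Ncr1. They were chosen by name as activating and inhibitory receptors of natural killer (NK) cells, and they make up 10 of the 32285 genes in the files. All 10 were found in both libraries. Their levels are given in CPM, the unique molecular identifiers (UMIs, 1 per captured RNA molecule) of a gene summed over the cells of a class and scaled to a common total of UMIs, together with the share of cells that held at least 1 UMI.

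NK cells kill target cells according to the balance of activating and inhibitory receptors that engage ligands on the target. In mice, the receptors of the Ly49 family bind MHC class I or viral proteins, and each NK cell switches on its own set of them. The CD94/NKG2A pair reads the nonclassical MHC molecule Qa-1, and NKG2D and NKp46 deliver activating signals through adaptor proteins with signalling motifs. Adipose tissue holds NK cells next to type 1 innate lymphoid cells (ILC1), which share several of these receptors and are less cytotoxic.

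Single-cell RNA was measured in CD45+ leukocytes sorted from brown adipose tissue (BAT) of male C57Bl/6 mice carrying AdipoQ-CreERT2 and ATGLfl/fl. The labels give an age of 16 weeks and the study's text a younger one, and the difference could not be settled here. Mice of the control library received vehicle and mice of the AdipoΔ/Δ library received tamoxifen, injected over 1 week and followed by 2 weeks of rest, so that both groups share the floxed allele and the inducible Cre. The Cre is driven by the adiponectin promoter of adipocytes, whereas the cells measured here are leukocytes. Each condition is 1 library, the number of mice behind each was not stated, and no p-value was computed.

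The control library held 2597 barcodes with 11327187 UMIs and the AdipoΔ/Δ library 2381 barcodes with 12028844 UMIs, of which 2279 and 2016 cells were kept at medians of 3678 and 3942 UMIs. Clustering without any NK receptor gene among the features gave 18 clusters in 12 classes. The NK-like class held 207 control and 177 AdipoΔ/Δ cells at medians of 6439 and 6479 UMIs, and 10 of 10 NK markers outside the Klr and Ncr1 genes (among them Gzma, Prf1 and Eomes) had UMIs in both libraries. In both libraries 4 barcodes were shared, 1 of them NK-like in each. Intervals are 95% and cover counting error only, not the spread between mice.

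In genome build GRCm38, 9 of the 10 genes lie within 1.455 Mb of chromosome 6, a stretch that holds 21 Klr genes, and Ncr1 lies alone on chromosome 7 at 4337724-4345164 on the plus strand. The 4 Ly49 genes stand within 189.6 kb, all on the minus strand, with Klra4 at chr6:130043731-130067271, Klra8 at chr6:130115226-130129898, Klra9 at chr6:130178675-130193112 and Klra7 at chr6:130218605-130233322. Klre1 (chr6:129577905-129585827, plus strand), Klrd1 (chr6:129591782-129598775, plus strand), Klrk1 (chr6:129610323-129623864, minus strand) and Klrc1 (chr6:129666015-129678973, minus strand) follow each other, and Klrb1c lies apart at chr6:128778485-128789215 on the minus strand.

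The families share sequence, which limits how a 55-base read can be assigned. In the last 500 bases of their transcripts, where 3′ reads fall, 44.0% of all 55-base stretches of Klra9 also occur in another gene. For Klrc1 it was 40.5%. The other genes were Klra8, Klra3, Klra10 and pseudogenes for Klra9, and Klrc2 and Klrc3 for Klrc1. The share was 19.4% for Klra7, 16.9% for Klrb1c, 8.97% for Klra8 and 3.59% for Klra4, and none was found for Klrd1, Klre1, Klrk1 or Ncr1. Klrb1c also overlaps Gm44511 on the same strand. Of the 10 genes, Klra9 and Klrc1 shared the most sequence by this measure.

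The 250 bases before the start of transcription were available for 9 of the 10 genes, Klrd1 being the exception (RefSeq, GRCm38.p6). They are shown for Klra4 and Klra8, which were found together in the same cells more often than the product of their shares, for Ncr1, found in nearly every NK-like cell, and for Klrc1, found in a subset of them. Klra4 and Klra8 are the most alike, with 212 identical bases in 251 aligned columns (84.5%), and their capitals mark bases that differ or have no partner. In Ncr1 and Klrc1 the capitals mark the letters TGTGGT (or ACCACA), the core bound by RUNX factors, and TCACAC (or GTGTGA), part of a T-box site. The 4 windows are chr6:130067272-130067521 (minus), chr6:130129899-130130148 (minus), chr7:4337474-4337723 (plus) and chr6:129678974-129679223 (minus), each written 5′ to 3′ on the strand of its gene.
Klra4: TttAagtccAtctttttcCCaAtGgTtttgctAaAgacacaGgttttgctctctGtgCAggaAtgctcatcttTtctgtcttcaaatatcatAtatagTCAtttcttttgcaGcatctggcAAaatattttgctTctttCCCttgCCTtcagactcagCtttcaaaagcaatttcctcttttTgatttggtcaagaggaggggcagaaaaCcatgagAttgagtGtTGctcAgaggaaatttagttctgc
Klra8: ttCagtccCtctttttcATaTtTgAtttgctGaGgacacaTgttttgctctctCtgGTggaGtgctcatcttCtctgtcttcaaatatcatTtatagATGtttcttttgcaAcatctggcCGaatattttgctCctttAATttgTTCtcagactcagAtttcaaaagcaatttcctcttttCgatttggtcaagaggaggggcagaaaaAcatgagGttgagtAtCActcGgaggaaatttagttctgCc
Ncr1: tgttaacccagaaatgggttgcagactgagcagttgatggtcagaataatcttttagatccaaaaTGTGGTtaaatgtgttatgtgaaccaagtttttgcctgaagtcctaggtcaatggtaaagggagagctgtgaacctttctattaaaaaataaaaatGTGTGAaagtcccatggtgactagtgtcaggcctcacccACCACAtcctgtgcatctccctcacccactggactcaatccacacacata
Klrc1: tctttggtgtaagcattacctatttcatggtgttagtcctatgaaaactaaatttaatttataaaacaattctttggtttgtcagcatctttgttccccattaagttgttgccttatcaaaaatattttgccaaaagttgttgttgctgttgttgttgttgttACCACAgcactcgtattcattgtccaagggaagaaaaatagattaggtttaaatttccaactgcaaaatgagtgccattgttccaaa
The Ncr1 window held 2 RUNX cores and 1 T-box core, and the Klrc1 window held 1 RUNX core. Single RUNX cores were also found before Klrb1c, Klre1 and Klrk1, and a T-box core in the other window of Klre1, whereas no window of the 4 Ly49 genes held either set of letters. Of 32817 promoter windows of this length, 14.0% hold the RUNX letters and 12.3% the T-box letters, so that a match is common and is given as a description.

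The 10 genes together were concentrated in NK-like cells in both libraries. Of 15221 member UMIs in the control library, 79.8% (Clopper-Pearson interval 79.2 to 80.5) came from NK-like cells, and of 14440 in the AdipoΔ/Δ library 81.5% (80.8 to 82.1). ILC1-like cells, a class of 38 control and 35 AdipoΔ/Δ cells, gave 10.1% and 9.33%, and T-like cells gave 3.74% and 4.46%. Dividing cells gave 3.30% and 1.06%, and dendritic cell-like cells 0.959% and 1.98%.

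Summed over the 10 genes, NK-like cells stood at 8540 CPM (Poisson interval 8389 to 8693) in the control and 8841 CPM (8682 to 9002) in the AdipoΔ/Δ library. ILC1-like cells followed at 4346 and 4425 CPM, and T-like cells at 340 and 454 CPM. By gene, the highest class was NK-like for 9 of 10 genes in the control and 8 of 10 in the AdipoΔ/Δ library. The exceptions were Klrc1, at 243 CPM in ILC1-like against 232 CPM in NK-like control cells, and in the AdipoΔ/Δ library Klrc1 and Klrk1. In neutrophil-like cells, which do not use these receptors, each gene had a UMI in 0 to 1.59% of control and 0 to 0.578% of AdipoΔ/Δ cells at medians of 2969 and 2720 UMIs, and shares at or below this level were read as background.

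**Figure D1:**
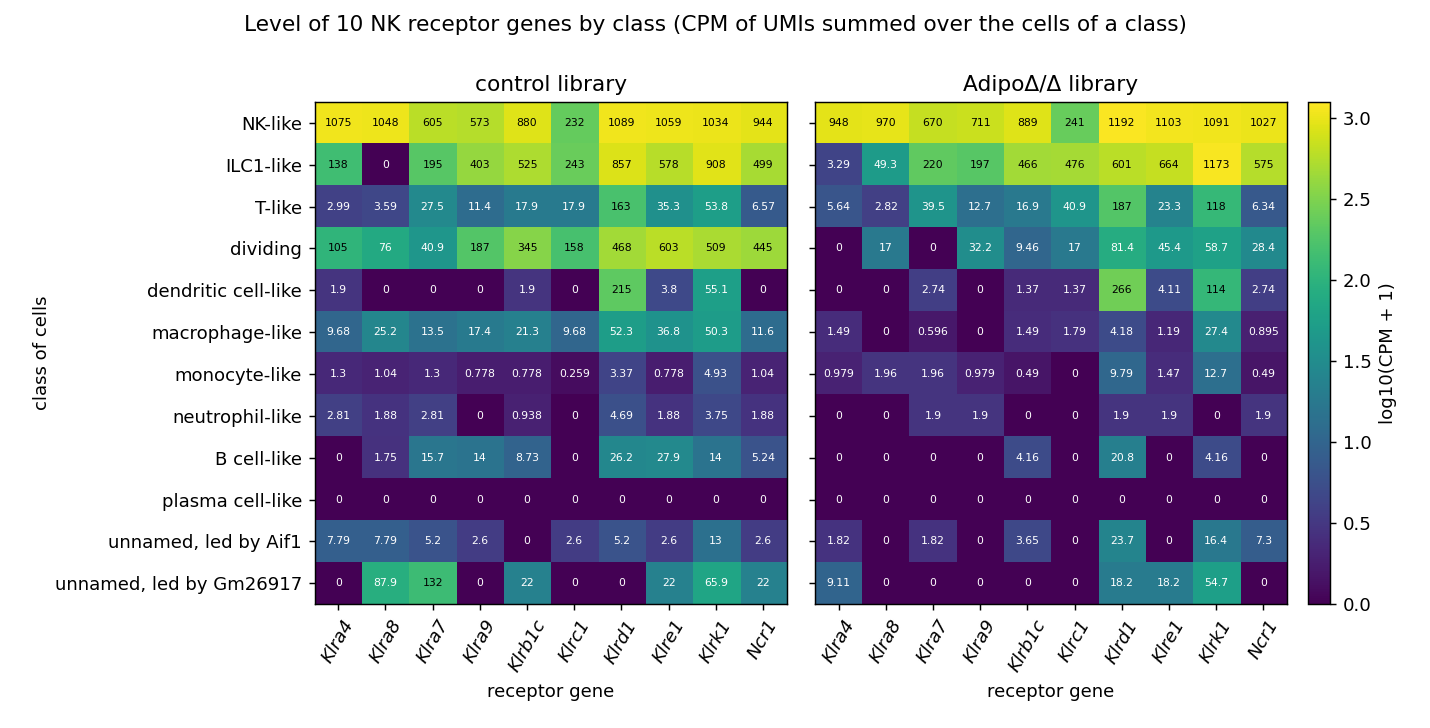
Level of each receptor gene (columns) in each class of cells (rows), in CPM of summed UMIs, for the control (left) and the AdipoΔ/Δ library (right). Colour shows log10(CPM + 1) and the printed values are CPM. The NK-like row holds the highest value in 9 of 10 columns on the left and in 8 of 10 on the right, and the ILC1-like row follows for most genes.

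Against T-like cells, all 10 genes were at least 4-fold higher in NK-like cells in both libraries, where 4.72% of 5807 genes in the control and 3.22% of 5745 genes in the AdipoΔ/Δ library passed the same fold. The ratio ran from 6.68 for Klrd1 (5.87 to 7.62) to 360 for Klra4 (154 to 1110) in the control, and from 5.90 for Klrc1 (4.45 to 7.95) to 344 for Klra8 (134 to 1266) in the AdipoΔ/Δ library. Against all cells outside the NK-like, ILC1-like, T-like and dividing classes, 10 of 10 genes were at least 4-fold higher in both libraries, where 5.53% of 8572 and 4.69% of 9048 genes were, with summed ratios of 134 and 128. Against T-like cells, Klrd1 was the gene with the smallest ratio in the control, and with Klrc1 and Klrk1 among the 3 smallest in both libraries. The largest ratios rest on few T-like UMIs, 5 of Klra4 in the control and 4 of Klra8 in the AdipoΔ/Δ library (2.99 and 2.82 CPM), near the 2.81 CPM of Klra4 in control neutrophil-like cells, and these genes passed the UMI minimum through NK-like cells. The summed ratio over T-like cells was 25.1 in the control and 19.5 in the AdipoΔ/Δ library, and it depended on how T-like cells were divided, since it was 45.1 and 43.4 without the T-like cluster led by Ly6a and Cxcr6 and 7.19 and 9.22 at a clustering resolution of 0.5.

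The activating Ly49 receptors are Klra4 (Ly49D, which signals through the adaptor DAP12 and binds the MHC molecule H-2Dd) and Klra8 (Ly49H, which binds the m157 protein of mouse cytomegalovirus). Among NK-like cells, Klra4 reached 1075 CPM (1022 to 1130) without tamoxifen and 948 CPM (896 to 1002) with it, and had a UMI in 65.7% and 65.0% of cells. Klra8 was at 1048 CPM (996 to 1103) and 970 CPM (918 to 1025), with a UMI in 72.9% and 70.6% of cells. Both genes were lower in the AdipoΔ/Δ library, at ratios of 0.882 (0.818 to 0.950) and 0.925 (0.858 to 0.998), while the share of cells with a UMI moved by less than its interval. Part of this lay in the 11 control and 17 AdipoΔ/Δ NK-like cells that had a CD3 UMI, where Klra4 was at 1369 and 609 CPM and Klra8 at 780 and 396 CPM. Without them, a split chosen after seeing the data, the ratios were 0.947 (0.875 to 1.02) and 0.983 (0.909 to 1.06), and both intervals include 1. Both genes were rare outside NK-like cells, which held 94.5% and 98.6% of all Klra4 UMIs and 97.0% and 97.6% of all Klra8 UMIs.

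The inhibitory Ly49 receptors are Klra7 (Ly49G) and Klra9 (Ly49I), which carry an inhibitory motif and restrain killing when they bind MHC class I. Klra7 was at 605 CPM (565 to 647) in the control and 670 CPM (626 to 715) in the AdipoΔ/Δ library, with a UMI in 66.7% of cells in both. Klra9 was at 573 CPM (534 to 613) and 711 CPM (666 to 758), with a UMI in 69.1% and 70.6% of cells. Both were higher in the AdipoΔ/Δ library, at ratios of 1.11 (1.01 to 1.22) and 1.24 (1.13 to 1.37). Without the cells that had a CD3 UMI, the ratio of Klra7 was 1.10 (0.997 to 1.22), an interval that includes 1. That of Klra9 was 1.23 (1.12 to 1.36).

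The sum of the 4 Ly49 genes was nearly equal, 3301 CPM in the control and 3299 CPM in the AdipoΔ/Δ library, while its makeup differed. Of the UMIs of these 4 genes, activating receptors gave 64.3% (62.9 to 65.7) in control and 58.1% (56.7 to 59.6) in AdipoΔ/Δ NK-like cells. This share leaves out Ly49 genes outside the members, such as the inhibitory Klra1 and Klra3. Reads of the 4 genes are also not equally easy to assign. At the 3′ end, 44.0% of Klra9 and 19.4% of Klra7 stretches occur in other genes, against 3.59% for Klra4 and 8.97% for Klra8. How this shaped the share was not tested. The summed activating pair had a ratio of 0.903 (0.857 to 0.952) and the summed inhibitory pair a ratio of 1.17 (1.10 to 1.25). Without the cells that had a CD3 UMI, the activating ratio was 0.965 (0.913 to 1.02), the inhibitory ratio 1.16 (1.09 to 1.25) and the activating share 63.8% (62.3 to 65.2) and 59.3% (57.8 to 60.9). These intervals treat each UMI as independent. Ly49 UMIs were bunched in single cells, up to 45 UMIs of Klra4 in 1 cell, and the spread from sampling cells and mice is not in them.

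Among the receptors that are not Ly49, Klrb1c (NK1.1, the activating receptor used to mark NK cells in C57BL/6 mice) was at 880 CPM in the control and 889 CPM in the AdipoΔ/Δ library, with a ratio of 1.01 (0.932 to 1.09). Klrd1 (CD94, the partner chain of the NKG2 receptors) was at 1089 and 1192 CPM, a ratio of 1.09 (1.02 to 1.17). Klrc1 (NKG2A, the inhibitory chain that pairs with CD94) was at 232 and 241 CPM, a ratio of 1.04 (0.889 to 1.22). For Klrc1, 38.6% (32.0 to 45.6) of control and 46.9% (39.4 to 54.5) of AdipoΔ/Δ NK-like cells had a UMI. Its partner Klrd1 was detected in 99.0% and 97.7% of cells, but at a higher level. At 4000 UMIs per cell, a Poisson distribution with the mean of Klrc1 would leave 38.2% and 40.8% of cells at 0. With the mean of Klrd1 it would leave 1.02% and 0.619%. Of the 3′ stretches of Klrc1, 40.5% also occur in another gene, and none of those of Klrd1 do.

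Klre1 (NKR-E1, which pairs with the Klri chains) was at 1059 and 1103 CPM, with a ratio of 1.04 (0.968 to 1.12). Klrk1 (NKG2D, an activating receptor for stress-induced ligands) was at 1034 and 1091 CPM, with a ratio of 1.06 (0.981 to 1.14). Ncr1 (NKp46, an activating receptor of NK cells) was at 944 and 1027 CPM, with a ratio of 1.09 (1.01 to 1.17). Each of these 3 genes had a UMI in at least 97.1% of NK-like cells in both libraries.

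Between libraries, 0 of the 10 genes differed by 1.5-fold or more in NK-like cells, where 8.06% of 5968 genes did (5.83% higher and 2.23% lower). The members had a median ratio of 1.05 beside 1.06 over all genes tested, and 8 of 10 were above 1. Marker sums of other cells also differed between the libraries in this class, and their part in the values above was not tested. The 8 neutrophil markers summed to 299 CPM in control NK-like cells (8 of 8 with a UMI) and 79.7 CPM in AdipoΔ/Δ cells (7 of 8). The 12 T markers summed to 535 (8 of 12) and 726 CPM (11 of 12), and the 10 macrophage markers to 30.2 (8 of 10) and 111 CPM (9 of 10).

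**Figure D2:**
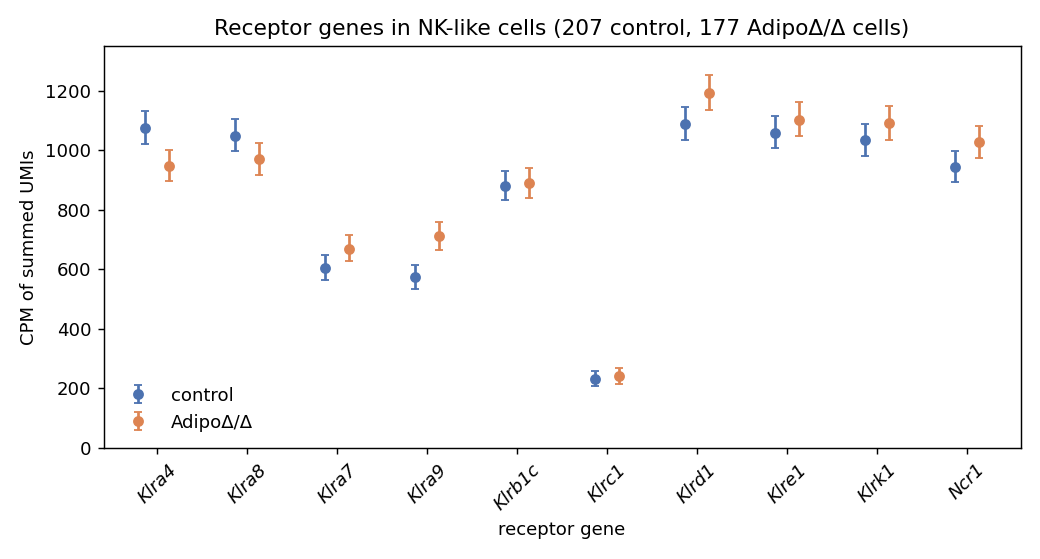
Level of each receptor gene in NK-like cells in CPM of summed UMIs (vertical axis from 0), for the control and the AdipoΔ/Δ library. Points are the values of 1 library each and bars are 95% Poisson intervals for counting error. Klra7 and Klra9 are higher and Klra4 and Klra8 lower in the AdipoΔ/Δ library. Once cells with a CD3 UMI are left out, counting error covers the differences of Klra4, Klra7 and Klra8, but not those of Klra9, Klrd1 and Ncr1. For Klra8 the ratio without these cells joins unlike values in 2 finer groups described below. It was 0.662 (0.576 to 0.761) in the group led by Ctla2a and 1.19 (1.08 to 1.31) in that led by Ccl4. Of the 10 genes, 0 differ by 1.5-fold.

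Within NK-like cells the genes other than Klrc1 fell into 2 patterns of detection, and Klrc1 lay between them in its variance. To compare cells at 1 depth, each was thinned to 4000 UMIs, which left 185 control and 165 AdipoΔ/Δ cells. At this depth Klra4 had no UMI in 35.1% of control and 39.4% of AdipoΔ/Δ cells, although a Poisson distribution with the same mean would leave 1.24% and 1.58% at 0. Klra4 was thus present in strength in a majority of cells and missing from the rest.

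The other Ly49 members behaved alike. Klra8 had no UMI in 32.4% and 32.7% of cells (Poisson 1.20% and 1.07%), Klra7 in 39.5% and 44.2% (7.71% and 7.75%) and Klra9 in 33.0% and 35.8% (8.14% and 4.44%). Klrc1 was missing from 62.7% and 61.2% of cells, against Poisson shares of 38.2% and 40.8%. For Klrb1c, Klrd1, Klre1, Klrk1 and Ncr1 the share at 0 lay between 1.82% and 7.03%. These shares were also above their Poisson shares, which ran from 0.619% to 2.85%. The variance of the 4 Ly49 genes was 3.14 to 6.34 times their mean, against 1.43 to 2.02 times for those 5 genes. That of Klrc1 lay between, at 2.78 times its mean in the control and 2.08 times in the AdipoΔ/Δ library.

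**Figure D3:**
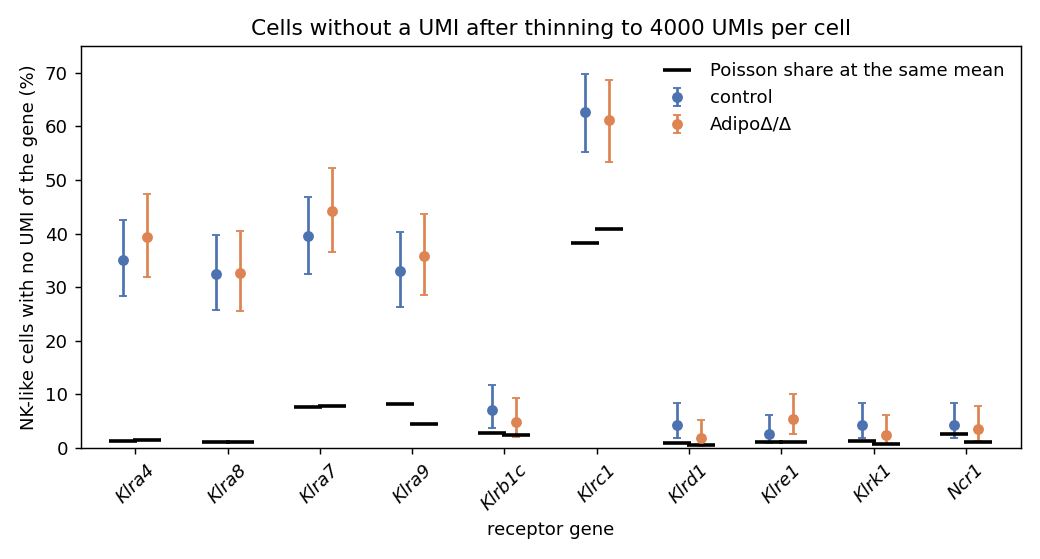
Share of NK-like cells with no UMI of each receptor gene (vertical axis, %) after thinning to 4000 UMIs per cell, in the control and the AdipoΔ/Δ library. Bars are 95% Clopper-Pearson intervals and black dashes the share that a Poisson distribution with the same mean leaves at 0. The 4 Ly49 genes and Klrc1 lie well above their dashes. The other 5 genes also lie above their dashes, but at or below 7.03%.

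Every one of the 16 possible combinations of the 4 Ly49 genes was found in both libraries. All 4 were detected in 43 of 185 control cells (23.2%, 17.4 to 30.0) and in 30 of 165 AdipoΔ/Δ cells (18.2%, 12.6 to 24.9), and none in 9 (4.86%) and 7 (4.24%). The most common number was 3, in 35.7% and 34.5% of cells. At a depth of 1000 UMIs the mean number per cell was 1.76 in the control and 1.73 in the AdipoΔ/Δ library.

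The genes were not detected independently of each other, as described here by the phi coefficient, which is 0 where 2 genes are found together as often as the product of their shares. Klra4 and Klra8 were found together in 49.2% of control cells, against a product of 43.8%, and in 49.1% of AdipoΔ/Δ cells, against 40.8% (phi 0.24 and 0.363). Klra4 with Klra7 gave 0.24 and 0.231. Klra7 with Klra8 gave 0.244 in the control and 0.0548 in the AdipoΔ/Δ library, and Klra7 with Klra9 gave -0.0252 and -0.155.

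Klrc1 went the other way. Klra4 and Klrc1 were found together in 14.1% of control and 15.8% of AdipoΔ/Δ cells, against products of 24.2% and 23.5% (phi -0.439 and -0.326). Klra8 with Klrc1 gave -0.254 and -0.24 and Klra7 with Klrc1 gave -0.178 and -0.167, whereas Klra9 with Klrc1 lay near 0 at -0.0297 and -0.0549. Cells that carried Klra4 thus carried Klrc1 less often than the product of the shares, in both libraries. Cells of 1 library share its depth and free RNA, and these coefficients are given without a test.

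At a finer clustering resolution (2.0) the same 384 NK-like cells divided into a group led by Ccl4 with 149 control and 120 AdipoΔ/Δ cells and a group led by Ctla2a with 58 and 57 cells. Describing these groups was chosen after the data were seen. The group led by Ccl4 had more Itgam (CD11b, a marker of mature NK cells), at 250 and 296 CPM against 81.1 and 117 CPM, and more Gzmb. The group led by Ctla2a had more Cd27, carried by less mature NK cells, at 162 and 122 CPM against 19.4 and 30.7 CPM.

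In the group led by Ctla2a, Klra8 was at 1164 CPM in the control and 670 CPM in the AdipoΔ/Δ library, a ratio of 0.576 (0.502 to 0.659). Klra4 was at 1105 and 773 CPM (0.699, 0.613 to 0.797) and Klra9 at 318 and 528 CPM (1.66, 1.36 to 2.03), while Klra7 was at 655 and 664 CPM (1.01, 0.869 to 1.18). Thus 1 member was higher and 1 lower by 1.5-fold or more, where 11.6% of 2887 genes passed in either direction (8.0% higher and 3.57% lower). Klra8 had a UMI in 74.1% (61.0 to 84.7) of control and 63.2% (49.3 to 75.6) of AdipoΔ/Δ cells of this group, intervals that overlap widely.

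In the group led by Ccl4, Klra4 was at 1059 and 1058 CPM, a ratio of 0.999 (0.911 to 1.10), and Klra8 was at 987 and 1160 CPM, a ratio of 1.17 (1.07 to 1.29). No member passed 1.5-fold there, beside 9.25% of 4637 genes (6.47% higher and 2.78% lower). The ratio of Klra8 thus lay above 1 in this group and below 1 in the group led by Ctla2a. The summed activating pair had a ratio of 0.636 (0.579 to 0.698) in the group led by Ctla2a and of 1.08 (1.02 to 1.16) in the group led by Ccl4. Without cells that had a CD3 UMI, these were 0.705 (0.639 to 0.777) over 53 and 49 cells and 1.12 (1.05 to 1.20) over 143 and 111 cells. With 1 library per condition and 57 or 58 cells in the smaller group, this contrast between groups has no replicate and was not tested.

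Within a library, the group led by Ctla2a had less Klra9 than the group led by Ccl4, at ratios of 0.450 (0.376 to 0.536) in the control and 0.639 (0.553 to 0.737) in the AdipoΔ/Δ library. Klrb1c was also lower in the control, at 0.663 (0.583 to 0.753), and Klra8 in the AdipoΔ/Δ library, at 0.578 (0.509 to 0.654). These were the 2 members past 1.5-fold in each library, beside 16.1% of 3894 genes in the control (4.37% higher and 11.7% lower) and 17.2% of 3915 genes in the AdipoΔ/Δ library (5.42% higher and 11.8% lower).

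ILC1-like cells carried the shared receptors and few of the activating Ly49 genes. The class was led by Cd7 and Xcl1. It had UMIs of 7 of 7 ILC1 markers, among them Cxcr6, Itga1 and Tnfsf10, but so had NK-like and T-like cells. The ILC1 markers summed to 1585 and 2290 CPM in this class. They summed to 823 and 896 CPM in NK-like and 282 and 442 CPM in T-like cells. A CD3 UMI was found in 18 of 38 control and 14 of 35 AdipoΔ/Δ cells. T markers summed to 1723 and 2300 CPM, about as much as the ILC1 markers. NK markers summed to more than either, 11298 and 9642 CPM (8 of 10 with a UMI in each library). Of this, Ccl5 alone gave 7400 and 5325 CPM. In NK-like cells the NK markers summed to 35516 and 33739 CPM. Macrophage markers summed to 0 CPM in the control (0 of 10 with a UMI) and 171 CPM in the AdipoΔ/Δ library (9 of 10), and the part of these cells in the values was not tested. Of 9 other clusterings, 6 did not form the class.

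Klra8 had 0 UMIs in the 38 control ILC1-like cells, which by the limit of 3 counts allows up to 7.89% of cells with a UMI (9.25% by the Clopper-Pearson interval), and its level was at least 124-fold lower than in NK-like cells, counting 3 UMIs over the class as the limit. In the AdipoΔ/Δ library it was at 49.3 CPM, and 14 of the 15 UMIs came from 1 cell. Klra4 was at 138 CPM in the control, where 33 of 49 UMIs came from 1 cell and 3 cells held any, and at 3.29 CPM from 1 UMI in the AdipoΔ/Δ library. Among the UMIs of the Ly49 members, the activating share was 18.8% (14.2 to 24.0) and 11.2% (6.53 to 17.5), against 64.3% and 58.1% in NK-like cells.

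In the control, 6 of 10 members were lower in ILC1-like than in NK-like cells by 1.5-fold or more and none was higher, where 28.6% of 4522 genes passed in either direction (7.78% higher and 20.9% lower). In the AdipoΔ/Δ library 8 were lower and 1, Klrc1, was higher, where 25.1% of 4494 genes passed (7.94% higher and 17.2% lower). Klra8 in the control (0 ILC1-like UMIs) and Klra4 and Klra8 in the AdipoΔ/Δ library (1 and 15) reached the UMI minimum through NK-like cells. Genes that enter this way could be called lower but hardly higher, so the counts of lower and higher are not on equal terms. The genes closest to NK-like levels in the control were Klrc1, at a ratio of 1.05 (0.815 to 1.33), and Klrk1, at 0.879 (0.776 to 0.992). Klrb1c (0.596 and 0.525), Klre1 (0.546 and 0.602) and Ncr1 (0.529 and 0.560) were lower in both libraries.

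**Figure D4:**
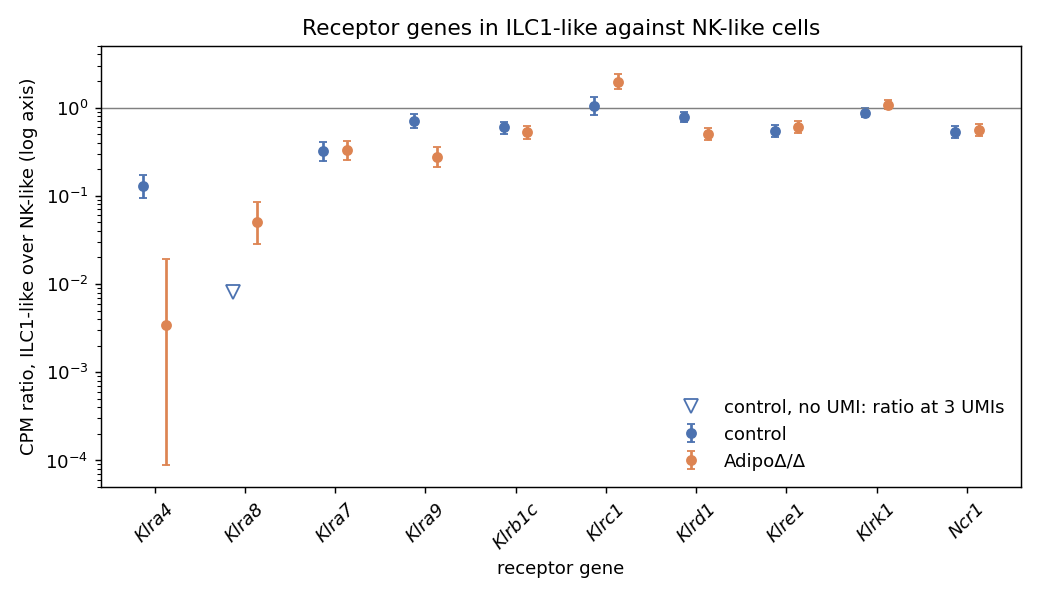
Ratio of CPM in ILC1-like over NK-like cells (log axis) for each receptor gene in the control and the AdipoΔ/Δ library. Bars are 95% conditional binomial intervals for counting error, the line marks equal levels, and the open triangle is the ratio that 3 UMIs would give for Klra8 in the control, where no UMI was found. Klra4 and Klra8 lie furthest below the line and Klrc1 and Klrk1 on or above it in most cases.

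Inside the ILC1-like class, Klrc1 was at 243 CPM (194 to 300) in the control and 476 CPM (402 to 560) in the AdipoΔ/Δ library, a ratio of 1.96 (1.49 to 2.60). Klra9 was at 403 CPM (340 to 475) and 197 CPM (150 to 254), a ratio of 0.489 (0.355 to 0.665). With cells thinned to 4000 UMIs, Klra9 had no UMI in 40.0% (23.9 to 57.9) of 35 control and 82.8% (64.2 to 94.2) of 29 AdipoΔ/Δ cells, and Klrc1 in 48.6% (31.4 to 66.0) and 24.1% (10.3 to 43.5). Klra7, the other inhibitory Ly49 gene, was at 195 and 220 CPM (1.13, 0.796 to 1.61), so that the lower value was that of Klra9 and not of both. The value of Klra7 mixed cells that differed, at 366 and 310 CPM with a CD3 UMI and 51.8 and 145 CPM without. Klra9 was at 310 and 144 CPM in cells with a CD3 UMI and at 481 and 241 CPM in cells without. The intervals of the Klrc1 shares overlap.

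In the same class Klrk1 was at 908 CPM (control) and 1173 CPM (AdipoΔ/Δ library) (1.29, 1.11 to 1.51) and Klrd1 at 857 and 601 CPM (0.701, 0.580 to 0.845). The sum of the 10 genes was 4346 and 4425 CPM, a ratio of 1.02 (0.946 to 1.10). Of the 9 members with at least 50 UMIs over both libraries, Klrc1 was higher and Klra9 lower by 1.5-fold or more, beside 17.5% of 1866 genes (12.3% higher and 5.14% lower). Klra4 also passed, but reached the minimum through 49 control UMIs, 33 of them in 1 cell, and is not read as a difference. None of the Ly49 members was detected in 28.9% of control and 48.6% of AdipoΔ/Δ cells, against 3.38% and 3.39% of NK-like cells. Ly49 genes outside the members are not in this count, such as Klra1, with 26 and 71 UMIs in 4 and 7 ILC1-like cells.

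Among dividing cells, a class led by Hist1h1b, Top2a and Mki67, the libraries differed in how many cells held the receptors. The 16 control cells had 502 member UMIs and the 34 AdipoΔ/Δ cells 153. At least 3 members were found in 10 of 16 control cells (62.5%, 35.4 to 84.8), which held 496 of those UMIs, and in 1 of 34 AdipoΔ/Δ cells (2.94%, 0.0744 to 15.3), which held 120. Dividing cells with several NK receptors were thus found mainly in the control library, among few cells.

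T-like cells held the set at a low level, summed to 340 CPM (313 to 369) in the control and 454 CPM (419 to 490) in the AdipoΔ/Δ library, a ratio of 1.33 (1.19 to 1.50), beside a median ratio of 1.16 over all genes in the class. Klrd1 was at 163 and 187 CPM in 24.7% and 31.7% of cells. Klrk1 was at 53.8 and 118 CPM (2.20, 1.69 to 2.88) and Klrc1 at 17.9 and 40.9 CPM (2.28, 1.44 to 3.67), while Klre1 was at 35.3 and 23.3 CPM (0.659, 0.417 to 1.03). Of 6 members with at least 50 UMIs, 2 were higher and 1 was lower by 1.5-fold or more, beside 18.7% of 5330 genes (16.1% higher and 2.61% lower). The T-like clusters differed in size between the libraries, and the summed ratio was 1.07 without the cluster led by Ly6a and Cxcr6. It turned to 0.808 at a clustering resolution of 0.5 and to 0.964 at a mitochondrial limit of 2%.

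The 3 T-like clusters used different members. In the cluster led by Dapl1 and Lef1, genes of naive T cells, Klrd1 was at 91.2 CPM in the control and 162 CPM in the AdipoΔ/Δ library (1.77, 1.22 to 2.58, the single member with at least 50 UMIs, 1 of 1 higher by 1.5-fold or more, beside 7.0% of 1644 genes higher and 6.02% lower), and Klrk1 had no UMI in either. In the cluster led by Cd8b1, a chain of the CD8 coreceptor, Klrd1 was at 212 and 167 CPM in 48.6% and 53.2% of cells, a ratio of 0.785, where 8.0% of 2124 genes were higher and 2.68% lower by 1.5-fold or more, and Klrk1 had 12 UMIs in the control and 0 in the AdipoΔ/Δ library. Summed over cells, Klrd1 outnumbered Klre1 in these clusters, at 15.8 and 28.5 UMIs per UMI of Klre1 in the first cluster and 24.2 and 11.5 in the second, against 1.03 and 1.08 in NK-like cells.

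The cluster led by Ly6a and Cxcr6 held 115 control and 137 AdipoΔ/Δ cells and most member UMIs of the T-like class, summed to 802 and 748 CPM. At least 3 members were found in 20 and 23 of these cells, which held 284 of 330 and 389 of 488 member UMIs. Klrk1 was at 189 and 257 CPM (1.36, 1.03 to 1.80), and Klre1 at 121 and 38.3 CPM (0.315, 0.187 to 0.519). Klrb1c was at 72.9 and 36.8 CPM (0.504, 0.282 to 0.893), so that 2 of 6 members were lower by 1.5-fold or more, and 0 of 6 were higher, beside 4.56% of 2720 genes lower and 15.8% higher.

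In that cluster 42 control and 33 AdipoΔ/Δ cells had no UMI of Cd3d, Cd3e or Cd3g. Klrk1 was at 267 and 294 CPM in cells with a CD3 UMI and at 22.9 and 41.7 CPM in cells without. Klrk1 thus lay mainly in cells with transcripts of the T cell receptor complex. Among NK-like cells, 11 control and 17 AdipoΔ/Δ cells had a CD3 UMI.

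Dendritic cell-like cells had Klrd1 and Klrk1 and almost no other member. Klrd1 was at 215 CPM (177 to 258) in 38.8% of 85 control cells and at 266 CPM (230 to 306) in 47.3% of 110 AdipoΔ/Δ cells, a ratio of 1.24 (0.976 to 1.57). Klrk1 was at 55.1 CPM (36.9 to 79.2) in 18.8% and at 114 CPM (90.5 to 141) in 38.2% of cells, a ratio of 2.06 (1.34 to 3.26). These were the 2 members with at least 50 UMIs in the class, and 16.4% of 2607 genes passed 1.5-fold there (12.6% higher and 3.84% lower). Thinned to 1000 UMIs, Klrk1 was found in 4.71% (1.30 to 11.6) and 11.1% (5.87 to 18.6) of cells.

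The other 8 members had 0 to 3 UMIs in either library in this class. Klrd1 outnumbered Klre1 by 56.5 (15.3 to 472) and 64.7 (21.8 to 316) UMIs to 1, whereas both genes were nearly equal in NK-like cells of the same libraries. Klrd1 and Klre1 were thus not in the ratio that NK-like cells of the same library had. Klrd1 was at 241 and 391 CPM in cells with a UMI of Cd209a, a lectin of dendritic cells, and at 159 and 86.4 CPM in cells without.

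Klrk1 was also found in macrophage-like cells led by Lyz1, at 32.6 CPM from 9 UMIs in 49 control cells and at 62.7 CPM from 85 UMIs in 176 AdipoΔ/Δ cells, where 12.2% and 27.3% (20.8 to 34.5) of cells had a UMI, or 0% and 4.17% (1.69 to 8.40) after thinning to 1000 UMIs. In the same cells Klre1 had no UMI and Klrd1 had 1 and 10. In macrophage-like cells led by Folr2, the control had 115 member UMIs, of which 103 lay in 6 of 57 cells with at least 3 members, while the AdipoΔ/Δ library had 11 in 128 cells. B cell-like cells of the control had 65 member UMIs, 55 of them in 1 cell, and plasma cell-like cells had none in either library.

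**Figure D5:**
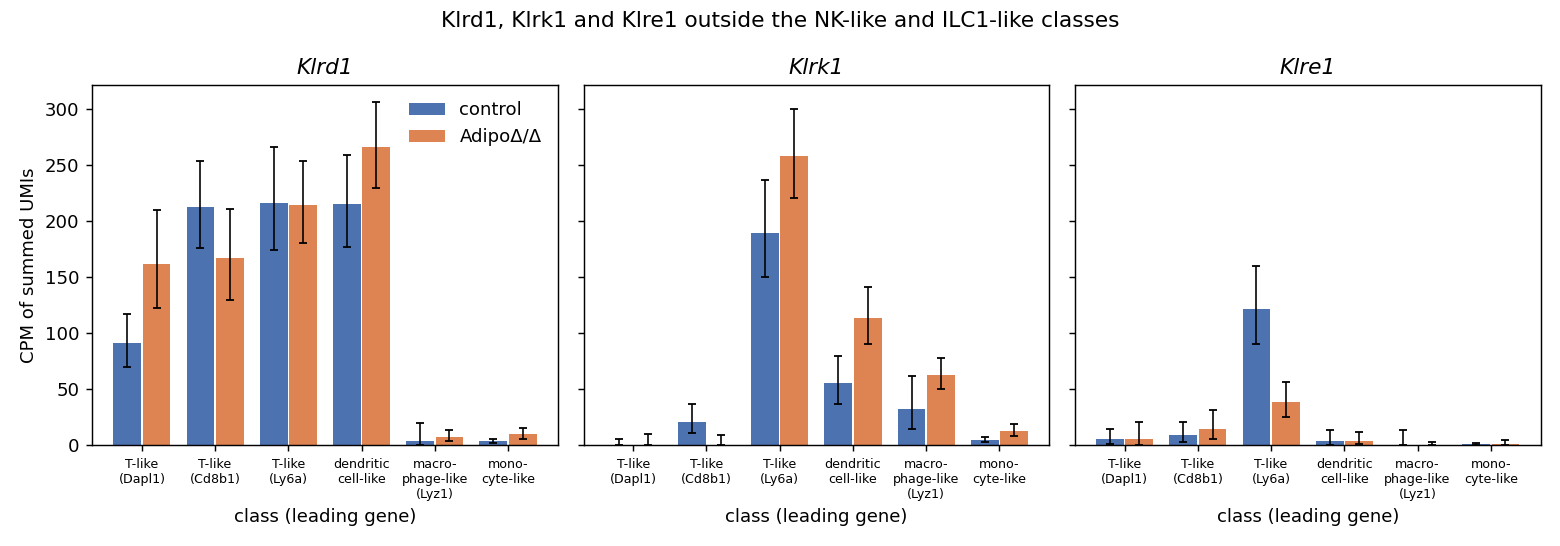
Level of Klrd1, Klrk1 and Klre1 in 6 classes or clusters outside the NK-like and ILC1-like cells (dividing, Folr2-led macrophage-like and other cells are not drawn), in CPM of summed UMIs (vertical axis from 0, shared), with the leading gene of a cluster in brackets. Bars are the values of the control and the AdipoΔ/Δ library and error bars 95% Poisson intervals for counting error. Klrd1 stands above 90 CPM in the T-like clusters and dendritic cell-like cells, and among those drawn Klrk1 and Klre1 are highest in the cluster led by Ly6a.

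Over 36 points, each a cluster in a library, the genes whose log2(CPM + 1) was most like that of the summed members among 9452 genes were Ccl5 (Pearson's r 0.916), a chemokine stored by cytotoxic lymphocytes, Anxa6 (0.881), Cd7 (0.877), Serpinb6b (0.875) and Klrc2 (0.844). The points share libraries and cells, and the coefficients are a description.

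Of 36 other NK receptors and linked lectins in the files, 21 had at least 50 UMIs in NK-like cells, and 3 were higher and 2 lower by 1.5-fold or more in the AdipoΔ/Δ library, at a median ratio of 1.15, beside 5.83% of all 5968 genes higher, 2.23% lower and a median of 1.06. Klra1 (Ly49A, an inhibitory receptor) was at 85.0 CPM in the control and 180 CPM in the AdipoΔ/Δ library (2.11, 1.69 to 2.65), found in 22 of 207 and 30 of 177 cells. Klra6 (Ly49F) was at 9.14 and 32.3 CPM (3.54, 1.87 to 7.17) in 12 and 13 cells, and Klrc2 (NKG2C, the activating partner of CD94) at 456 and 464 CPM. Klra3 (Ly49C, also inhibitory) was at 254 and 262 CPM, so that the difference was not shared by every inhibitory Ly49 gene.

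Of 17 adaptors and signalling genes tested, 0 passed 1.5-fold, where 8.06% of all genes did, and the median ratio was 1.04. Tyrobp (DAP12, used by Ly49D and Ly49H) was at 3290 and 3189 CPM, Fcer1g (used by NKp46) at 2620 and 2686 CPM and Hcst (DAP10, used by NKG2D) at 769 and 726 CPM. Of 8 ligands tested 0 passed, at a median ratio of 1.18, with the MHC class I gene H2-K1 at 2579 and 3170 CPM (1.23, 1.18 to 1.29).

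Of 13 transcription factors tested, 2 were higher and 0 lower, beside 5.83% and 2.23% of all genes. They were Tox, required for NK cell development, at 39.4 and 76.7 CPM (1.95, 1.39 to 2.75), and Gata3, at 60.4 and 94.0 CPM (1.55, 1.17 to 2.07). Eomes, which sustains mature NK cells, was at 240 and 234 CPM. Of 16 genes of maturation and tissue residency, 0 passed in either direction, at a median ratio of 1.02.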

How the data were processed

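CD45+ cells from BAT were profiled by droplet-based 3′ single-cell RNA sequencing, with 1 control and 1 AdipoΔ/Δ library. The authors aligned reads and counted UMIs per gene and barcode, and deposited these raw counts as 1 matrix per library, with no normalization. The matrix headers name Cell Ranger 4.0.0, and the submitters' processing notes name Cell Ranger, Seurat and mm10. The cDNA read had 55 bases. The deposited tables held no columns of comparisons.

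Barcodes entered the analysis if 200 genes or more were detected and mitochondrial UMIs made up no more than 10% (87.8% of control and 84.7% of AdipoΔ/Δ barcodes). The limit of 2% in the study's methods would have kept 50.3% and 37.3% and was an alternative. Counts were normalised with SCTransform and integrated by anchors in Seurat 5.3.0 (sctransform 0.4.2, R 4.3.3), with 2000 features from which NK receptor genes were removed, 20 components and a resolution of 1.0. A cluster was named where at least 3 markers of 1 list were each found in 10% of its cells, with a score of at least 0.3 and no conflict among its 10 leading genes. Scrublet (Scanpy 1.11.5, expected rate 2%) called 8 control and 4 AdipoΔ/Δ barcodes (0.308% and 0.168%), too few to rely on, and these were kept.

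UMIs were summed per class and library and divided by the UMIs of the class. Intervals were exact at 95% (Poisson for levels, Clopper-Pearson for shares, conditional binomial for ratios; SciPy 1.17.1) and cover counting error only. Ratios were called at 1.5-fold, or 4-fold for NK-like over other cells, among genes with at least 50 UMIs. A level of 0 was bounded with 3 UMIs over the class. Shares of cells were compared after thinning to 1000 UMIs, and patterns within cells after thinning to 4000. Intervals and fold calls of the ratio between libraries were tested on simulated Poisson sums per gene for the NK-like class. The simulation held no cells, so it did not cover clustering or class names. Counts of the Ly49 genes spread more widely between cells than Poisson counts, which it did not cover either. Promoter sequences and gene positions came from RefSeq GRCm38.p6 and GENCODE vM21.

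The 10 receptors and all gene lists were chosen with earlier results of these data known. All 10 were named, and from each list at most the 5 genes with the most UMIs in NK-like cells and the 2 with the largest ratio in each direction. Of 16 alternatives, 13 were planned and 3 were added after seeing the data.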

Additional observations from a re-analysis of the deposited data

Results flagged for a closer look

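Member UMIs were also found in the barcodes that the filters left out, which no comparison used. The 318 control barcodes left out had 104 member UMIs, 181 CPM (148 to 220), and the 365 AdipoΔ/Δ barcodes left out had 98, 138 CPM (112 to 168). Both levels were below those over all kept cells, 1415.5 CPM in the control and 1276 CPM in the AdipoΔ/Δ library. The source of the member UMIs in the barcodes left out was not tested.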

How the results depend on the processing

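Of 124 values recomputed under the alternatives, 36 moved beyond their interval and 3 changed direction. The other 85 kept their direction and stayed within their interval or, for counts of members, within 1.5 times the count. The number of members highest in NK-like cells was 9 to 10 in the control and 8 to 10 in the AdipoΔ/Δ library. Leaving out NK-like cells with a CD3 UMI, the T-like cluster led by Ly6a and Cxcr6, or barcodes found in both libraries was chosen after seeing the data. The causes of the changes were not tested.

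The share of member UMIs in NK-like cells (79.8% control, 81.5% AdipoΔ/Δ) was 80.7% and 80.6% with NK receptor genes kept among the features, 80.9% and 82.6% at a mitochondrial limit of 5%, and 89.2% and 86.9% at a limit of 2%. It was 78.7% and 79.9% without NK-like cells that had a CD3 UMI, and in the AdipoΔ/Δ library 79.8% with the libraries merged without integration and 80.5% with at least 500 genes. The ratio of NK-like over T-like cells (25.1 and 19.5) was 7.19 and 9.22 at resolution 0.5, 7.50 and 7.30 with 30 components, 28.7 and 23.2 with receptor genes kept, 20.9 and 13.1 without integration, and 14.3 and 15.3 at the 2% limit. It was 18.3 and 15.2 without mitochondrial and ribosomal protein genes, 45.1 and 43.4 without the T-like cluster led by Ly6a and Cxcr6, and 18.0 in the AdipoΔ/Δ library at resolution 2.0. The mean number of Ly49 members per NK-like cell (1.76 and 1.73) was 1.62 and 1.58 at the 2% limit. It was 2.16 and 2.23 thinned to 2000 UMIs, and 2.74 and 2.73 unthinned.

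The summed AdipoΔ/Δ over control ratio in NK-like cells (1.04) was 0.979 when divided by the median ratio of all genes and 1.06 without cells that had a CD3 UMI. In T-like cells (1.33) it turned to 0.808 at resolution 0.5 and 0.964 at the 2% limit, and was 1.06 with 30 components, 1.69 without integration, 1.15 divided by the median and 1.07 without the cluster led by Ly6a and Cxcr6. Leaving out the 4 barcodes found in both libraries changed none of these calls. The 2% limit left 144 NK-like cells, of which 138 were among the 384 described. The ILC1-like class was not formed at resolution 0.5, with 30 components, without integration, at either mitochondrial limit or with at least 500 genes. No paired analysis was possible because each condition is 1 library. No replicate could be left out for the same reason.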
